A study of Mus musculus with 8 samples.

Results

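The cells described here are the fibroblast-like cells that were captured in the 2 epithelial libraries of mouse colon assembloids. Assembloids are small cultures in which colon organoids, the epithelial part, were embedded in Matrigel together with cultured primary stromal cells of the colon. The series holds 8 single-cell RNA libraries made with the 10x Genomics 3' v3 chemistry, with 2 of the stroma and 2 of the epithelium of assembloids, 2 of organoids and 2 of epithelium from colon tissue. The labels name no genotype, treatment, age or culture time for any of these libraries. The study's methods derive the assembloid stroma from 2 C57BL/6 mice and name 2 biological replicates per group. Both kinds of assembloid cells were released by Liberase and DNase and then TrypLE, whereas organoids and tissue crypts were treated with TrypLE. The stromal partner was grown in plates or flasks before assembly, which limits it as a model of the fibroblasts that surround crypts in the animal. A barcode was taken as a captured fibroblast when it had at least 500 genes, at most 10% mitochondrial counts, at least 1 unique molecular identifier (UMI) in at least 3 of the 4 genes Col1a1, Col1a2, Col3a1 and Dcn, and at most 1 UMI of the epithelial adhesion gene Epcam. This rule found 795 of 29410 passing barcodes in assembloid epithelium replicate 1 and 329 of 7722 in replicate 2, thus 1124 of 37132 in both and of 77108 in all 8 libraries. They were set beside the 7073 and 8485 barcodes of the 2 stromal libraries of assembloids that had at least 3 Col1a2 UMIs and no Epcam UMI, called stromal-library fibroblasts below. The cells were thus selected on the measured levels of these 5 genes, which are given as a description only, and the 5 genes are left out of all counts of genes.

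Colon fibroblasts lie beneath and between the crypts, where they lay down collagens and other matrix and secrete the signals that position epithelial stem cells and their offspring. Cells near the crypt base, often called trophocytes, are known for BMP inhibitors such as Grem1 and for the Wnt amplifier Rspo3. Telocytes, also called subepithelial myofibroblasts, lie close to the epithelium, strongly express the receptor Pdgfra and are known for Foxl1, Wnt5a and BMP ligands. Fibroblasts can also take on contractile features with smooth muscle actin, or release cytokines in inflamed or injured tissue.

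The captured fibroblasts made up 2.70% of passing barcodes in assembloid epithelium replicate 1 (95% exact binomial interval 2.52 to 2.89) and 4.26% in replicate 2 (3.82 to 4.74). The limits on genes and mitochondrial UMIs are those the study states for its stromal cells. The limits it used for epithelial cells are not given in the sources used here, and it kept fewer assembloid epithelial cells than pass here, so these shares rest on the limits chosen. With at most 5% mitochondrial UMIs they were 3.02% and 6.42%. Such intervals cover counting error only. The same rule found 0 of 4872 and 0 of 8034 passing barcodes in the organoid libraries, which were grown without stroma, and 0 of 4692 and 0 of 4310 in the tissue libraries. By the same exact intervals, a count of 0 allows shares of up to 0.0757% and 0.0459% in the organoids and up to 0.0786% and 0.0856% in the tissue. Among the epithelial libraries, the cells thus appeared in both in which stroma was part of the culture and were not detected in the others at this depth.

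Of the captured fibroblasts, 492 in replicate 1 and 290 in replicate 2 had all 4 rule genes, and 303 and 39 had 3. Epcam was at 0 UMIs in 399 and 144 of them and at 1 UMI in 396 and 185. Just outside the rule, 434 and 29 barcodes with at most 1 Epcam UMI had 2 of the 4 genes, and 370 and 125 barcodes with 3 or 4 genes had 2 Epcam UMIs. The members with only 3 rule genes in replicate 1 were shallow, with a median of 1943 UMIs and 7 UMIs of the rule genes per cell, against 5757.5 and 48 in those with 4. The counts of barcodes by rule genes and Epcam left no empty band around the members in replicate 1, whereas in replicate 2 few barcodes with at most 1 Epcam UMI had 2 or 3 rule genes. Along Epcam there was no gap in replicate 2 either. Its barcodes with all 4 genes numbered 125, 165, 108, 82 and 61 at 0, 1, 2, 3 to 5 and 6 or more Epcam UMIs. The share in replicate 2 thus depends on the Epcam limit.

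**Figure D1:**
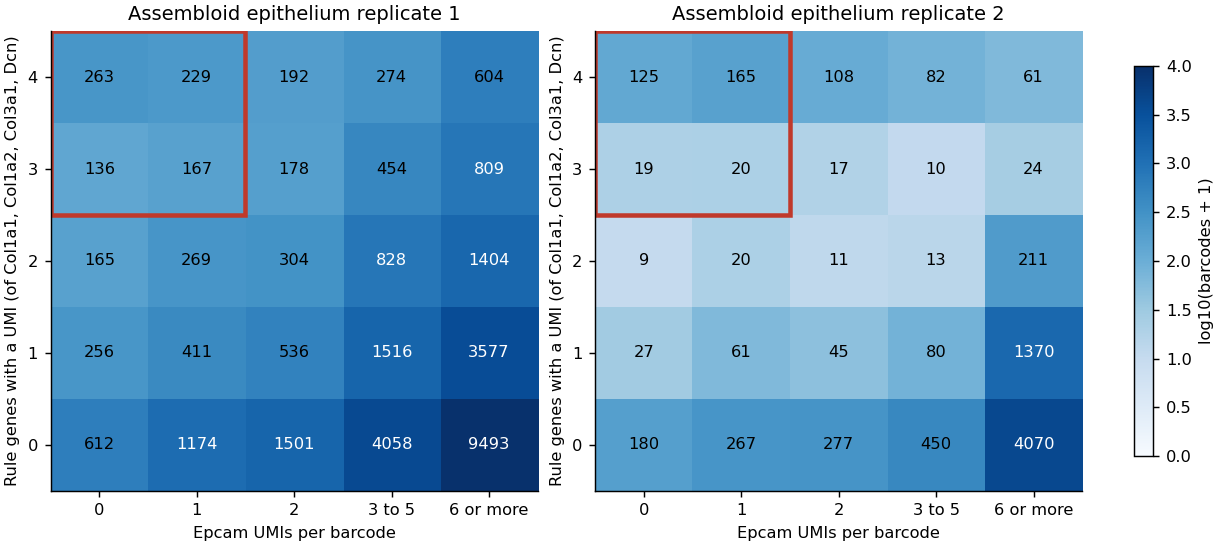
Number of passing barcodes by how many of the 4 rule genes had a UMI (vertical axis) and by Epcam UMIs (horizontal axis) in assembloid epithelium replicates 1 and 2, with darker blue for more barcodes on a log10 scale. The red frame marks the captured fibroblasts, 795 and 329 barcodes, of which 492 and 290 had all 4 genes.

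The name fibroblast was checked with 16 genes that the rule did not use, among them the intermediate filament gene Vim, the matrix protein genes Sparc and Bgn and the receptor genes Pdgfra and Pdgfrb. UMIs were summed over the cells of each library and are given as CPM, the counts of a gene scaled to an equal total in every sum, replicate 1 first. The 16 genes together took 6486 and 7933 CPM in the captured fibroblasts, 9156 and 8758 CPM in the stromal-library fibroblasts and 97 and 33 CPM in the epithelial cells of the same libraries as the captured ones. These epithelial cells, used as a reference throughout, had at least 3 Epcam UMIs and fewer than 3 rule genes. Vim stood at 924 and 1458 CPM in the captured fibroblasts against 1189 and 1116 CPM in the stromal libraries and 19.4 and 14.5 CPM in the epithelial cells. After each cell was thinned to 2000 UMIs, Sparc was seen in 91.9% and 95.6% of captured fibroblasts, 99.4% and 99.1% of stromal-library fibroblasts and 8.17% and 1.23% of epithelial cells. Thinning left out 225 of 795 and 8 of 329 captured cells for having fewer UMIs. In replicate 1 the 303 members with 3 rule genes had a median of 1943 UMIs, so many of them fell outside this check. Both captured sums thus lay below the stromal-library fibroblasts and far above the epithelial cells in the total of these genes.

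The captured cells also carried RNA of epithelial cells. A list of 15 epithelial genes, among them the lectin gene Lgals4 and the cadherin gene Cdh1, made up 0.251% and 0.119% of their UMIs, against 1.29% and 1.63% in the epithelial reference cells. The ratio of these shares puts epithelial RNA at 19.4% of the UMIs of captured fibroblasts in replicate 1 (range over the 15 genes 12.1 to 23.7%) and at 7.25% in replicate 2 (5.14 to 9.74%). In the members with all 4 rule genes the estimate was 13.4% and 7.0%. In replicate 1 the list made up 0.526% of the UMIs of the 303 members with 3 rule genes and 0.174% of those of the 492 with 4. In replicate 1, 124 cells (15.6%) had over 1% of their UMIs in the list, and in replicate 2 none did. Those 124 thus held about as much as the epithelial reference cells, whose median in replicate 1 was 1.19%. At least 1 rule gene was seen in 12572 of the 29410 passing barcodes of replicate 1. Whether some members are epithelial cells with few Epcam UMIs and free fibroblast RNA was not tested. No doublet caller was run, so free RNA and a shared droplet cannot be told apart here. Macrophage genes, 14 in number, summed to 331 and 714 CPM in the captured fibroblasts, 1208 and 389.6 CPM in the stromal-library fibroblasts and 233 and 326 CPM in the epithelial cells, and the matrix protein gene Spp1 alone made up 207 and 454 CPM in the captured and 1193 and 359.8 CPM in the stromal-library fibroblasts. The defining markers C1qa, at 11.6 and 26 CPM against 20.5 and 31.8 CPM in the epithelial cells, and Csf1r, at 4.32 and 5.09 against 2.67 and 3.37 CPM, stood in the captured fibroblasts near the levels of the epithelial cells around them. Of the macrophage genes, 12 of 14 were called higher than in the stromal libraries in the comparison described below, where 24.1% of all genes were. The count was 6 without captured replicate 2, 5 with the stromal rule in all libraries and 11 when the estimated epithelial RNA was subtracted. After thinning, 4.91% and 2.18% of captured fibroblasts had at least 2 macrophage genes, against 0.283% and 0.177% of stromal-library fibroblasts. In epithelial cells the shares were 6.17% and 2.57%. The part of macrophage RNA in other results was not tested. The enteric glia markers Sox10 and Gfap and the enteric neuron marker Elavl4 were at 0 UMIs in both captured sums. The 0 of Sox10 says little, since 3 UMIs over both sums are 0.414 CPM and the pooled stromal-library fibroblasts held 0.434 CPM. They held 2.26 CPM of Elavl4. The endothelial genes Cldn5 and Kdr were near 0, with Cldn5 at 0.27 and 0 CPM and Kdr at 0.27 and 0 CPM. The whole endothelial list summed to 23.7 and 24.6 CPM in the captured and 39.6 and 56.3 CPM in the stromal-library fibroblasts. In the epithelial cells it summed to 16.5 and 13.5 CPM. The glia list summed to 130.0 and 21.8 CPM in the captured and 7.27 and 6.91 CPM in the stromal-library fibroblasts, most of it in the captured cells from Erbb3, at 122 and 19.8 CPM, which the epithelial cells held at 795 and 525 CPM. S100b, at 7.55 and 0.848 against 0.476 and 0.595 CPM, was the other glia gene called higher. The neuron genes called higher were Elavl3, Snap25 and Stmn2, with Stmn2 at 16.5 and 18.1 against 8.23 and 6.97 CPM, and the neuron list summed to 35.3 and 34.5 against 56.3 and 56.3 CPM. Of 10 neuron genes tested, 3 were called higher and 6 lower, of 8 glia genes 2 and 3, of 12 endothelial genes 0 and 1, and of 3 mesothelial genes 1 and 0. Without captured replicate 1, the neuron counts were 1 higher and 6 lower and the glia counts 1 and 1, and with the captured rule in all libraries they were 1 and 6 for both lists. With the stromal rule in all libraries they were 1 and 4 for the neuron and 2 and 1 for the glia list. The mesothelial call was lost without either captured library. Without stromal replicate 2, 6 neuron genes could be tested, with 1 and 3 called, and 3 glia genes, with 1 and 1. All 4 keratins and 14 of the 15 epithelial genes were called higher.

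The captured fibroblasts were shallower than those of the stromal libraries. Their median was 4105 and 10010 UMIs per cell, and the summed cells held 3707166 and 3536064 UMIs, whereas the stromal-library fibroblasts had medians of 14896 and 13294 UMIs and sums of 119867214 and 131161089. Mitochondrial genes took 1.47% and 1.97% of UMIs in the captured and 3.97% and 4.07% in the stromal-library fibroblasts. At most 4 barcode sequences of captured fibroblasts of 1 library also occurred in any other library. The file headers name Cell Ranger 7.1.0 for the epithelial and 6.0.1 for the stromal libraries, and whether reads in introns were counted is not given in the sources used here. The study calls its assembloid stromal cells EpCAM-negative, and its single-cell methods name no sorting step. Library kind, with this choice of cells, software version and depth differ between the groups in the same way and cannot be told apart. The selection rule also differed, and giving all 4 libraries the same rule left 8092 calls with the captured rule and 6662 with the stromal rule, against 8174 in the comparison below. The stromal rule kept only 221 and 120 barcodes of the epithelial libraries. Of these, 221 and 119 were among the 795 and 329 captured fibroblasts, so counts under this rule come from far fewer cells.

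The comparison asks how fibroblasts that came along with the epithelium differed from those of the stromal libraries. With 2 sums against 2, edgeR's quasi-likelihood test called 8174 of 16501 genes at an adjusted p under 0.05, which is 49.5% of genes. Of all genes, 24.1% were called higher and 25.4% lower in the captured fibroblasts, so a list with calls at about these rates does not stand out. The median log2 fold change over all genes was -0.10. The difference followed intron length, with a median of -0.68 in the shortest of 10 equal bins of genes by total intron length and 1.22 in the longest. In the longest bin, 56.5% of genes were called higher and 4.24% lower. Epcam-positive barcodes gave the same trend between the same library kinds, from -0.65 to 1.15 for epithelial replicate 1 and from -0.53 to 1.49 for replicate 2 against the 200 such barcodes of stromal replicate 1. Here and in the lists below, values for Epcam-positive barcodes are differences of log2 CPM with a constant added, which shrinks changes at low levels. Their size is thus not on the scale of the edgeR changes, and the bins hold only genes above a level limit. Those 200 barcodes were led by other keratins, with Krt14 at 3806 CPM there and 0.936 and 0.965 CPM in the epithelial libraries, so they are not matched epithelium. Each value below was therefore also computed with offsets set for each library within these 10 bins, called length offsets. It was also computed with the estimated epithelial RNA subtracted. The length offsets did not remove the trend fully, since the bin medians then ran from -0.43 in the shortest to -0.06 in the longest bin. Length offsets left 7363 calls and subtraction left 7513 of 16123 genes (46.6%), of which 22.4% of genes were higher and 24.2% lower. Of the 8174 calls, 6943 held in the same direction after subtraction and 15 were called in the other direction. The calls lean on the stromal libraries, since without stromal replicate 2 there were 5003 and without stromal replicate 1 edgeR called 0, in every list below too, with 5279 genes at an unadjusted p under 0.05 and 3472 calls by DESeq2. Of the called genes named in the text, Pdgfra, Foxl1, Mmp3, Bmp4, Vegfa, Gapdh, Hspa1a, Snap25, Elavl3, S100b and Krt14 also lost their call without captured replicate 1. Without captured replicate 2, Foxl1, Acta2, Fst, Gapdh, Hspa1a, Elavl3, C1qa and Krt14 lost theirs. Without stromal replicate 2, Pdgfra, Acta2, Pcolce, Mmp3, Bmp4, Ptgs1, Gapdh, Hspa1a, Snap25 and S100b lost theirs, and Foxl1, Elavl3 and Elavl4 were too low to be tested. In every called gene named below, both captured libraries lay on the same side of both stromal ones. In summed counts, fewer cells in a state and less RNA per cell cannot be told apart.

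**Figure D2:**
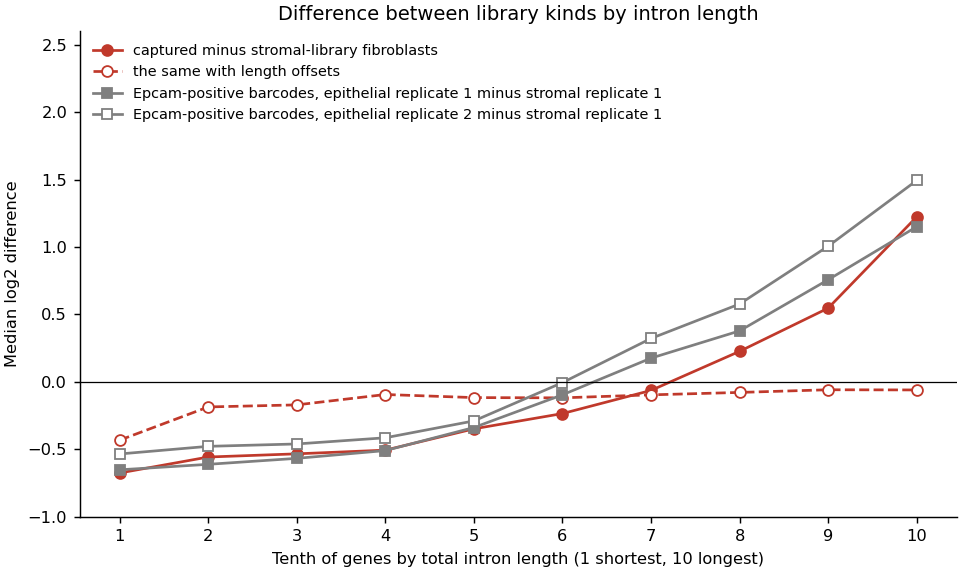
Median log2 difference (vertical axis) in 10 equal bins of genes by total intron length (horizontal axis) for captured minus stromal-library fibroblasts (red), the same with length offsets (dashed) and Epcam-positive barcodes of the epithelial libraries minus those of stromal replicate 1 (grey). The red line rose from -0.68 to 1.22 and the grey lines rose alongside it, from -0.65 to 1.15 and from -0.53 to 1.49. The dashed line ran from -0.43 to -0.06. The grey lines are differences of log2 CPM with a constant added, over genes above a level limit, and not edgeR changes.

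Few genes that mark fibroblasts in general were called. Of the 16 outside the rule, 1 was called higher (6.25%) and 3 lower (18.75%), with a median log2 fold change of -0.27. Pdgfra, the receptor that is high in telocytes, stood at 204 and 260.2 CPM in the stromal-library and 412 and 358 CPM in the captured fibroblasts (log2 fold change 0.68 ± 0.21, adjusted p = 0.0432), and the call was lost when Epcam was required to be 0 (adjusted p = 0.0525) or without captured replicate 1 (adjusted p = 0.112). Thy1, a surface glycoprotein of mesenchymal cells, fell from 183 and 97.1 to 28.1 and 42.7 CPM (log2 fold change -2.04 ± 0.37, adjusted p = 0.00911). Twist1, a transcription factor of the mesenchyme, fell from 244 and 197 to 45.9 and 68.4 CPM (log2 fold change -2.00 ± 0.23, adjusted p = 0.00303). Another lower gene was Pcolce, the enhancer of procollagen processing, at -0.98 (adjusted p = 0.0125), which missed the threshold with length offsets (adjusted p = 0.0511). The 4 rule genes for fibroblasts are described only, with Col1a2 seen in 79.5% and 77.3% of captured and 91.1% and 95.4% of stromal-library fibroblasts after thinning.

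Few trophocyte markers were called, and the telocyte list went both ways, with the study's own telocyte markers lower where called. Of 15 trophocyte-like genes, 0 were called higher and 2 lower (13.3%). The higher count was 3 of 14 without stromal replicate 2, and 4 with the replicate number as a block. Of 15 telocyte-like genes, 3 were higher (20%) and 4 lower (26.7%). Grem1, the secreted BMP inhibitor of the crypt base, stood at 819 and 716 CPM in the captured against 777 and 661 CPM in the stromal-library fibroblasts (log2 fold change 0.05 ± 0.19, adjusted p = 0.859). Rspo3, the R-spondin that amplifies Wnt signals, was at 112 and 132 against 104 and 138 CPM (log2 fold change -0.05 ± 0.20, adjusted p = 0.867). In both genes the libraries of the groups overlapped and the change was smaller than the spread between libraries, although with length offsets Rspo3 was called lower at -0.65 (adjusted p = 0.0429). Cd34, a surface marker of trophocytes, was at 18.3 and 21.5 against 25.5 and 28.5 CPM and did not pass (adjusted p = 0.0579), while the tetraspanin gene Cd81 was lower at -0.89 ± 0.19 (adjusted p = 0.0146). Sfrp1, a secreted Wnt antagonist, fell from 718 and 1093 to 196 and 369 CPM (log2 fold change -1.74 ± 0.38, adjusted p = 0.0154).

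On the telocyte side the calls of the whole list went both ways. Foxl1, Wnt5a, Sox6, Bmp2, Bmp5 and Bmp7 are genes that the study reports in its telocyte-like cells. Of these, Foxl1, Wnt5a and Bmp2 were called, all lower. The higher calls, Procr, Ednrb and F3, were further members of the list. Enpp2, which encodes autotaxin, the enzyme that makes lysophosphatidic acid, fell from 299 and 313 to 20.2 and 30.3 CPM (log2 fold change -3.66 ± 0.23, adjusted p = 0.00161). Procr, the endothelial protein C receptor, rose from 17.2 and 18.1 to 281 and 136 CPM (log2 fold change 3.52 ± 0.40, adjusted p = 0.00282), and Ednrb, an endothelin receptor, from 8.09 and 10.1 to 41.8 and 26.3 CPM (log2 fold change 1.86 ± 0.29, adjusted p = 0.00579). Epithelial cells held 3.66 and 0.375 CPM of Procr and 0.916 and 0.356 CPM of Ednrb, below both groups of fibroblasts, and without captured replicate 1 the change of Procr was 2.85. F3, the tissue factor gene, rose by 1.68, with 259 and 296 CPM in the epithelial cells, and by 1.27 after subtraction. Wnt5a, a Wnt ligand of telocytes, fell from 56.4 and 48.8 to 29.1 and 18.4 CPM (log2 fold change -1.19 ± 0.25, adjusted p = 0.015) and missed the threshold after subtraction (adjusted p = 0.0555). Foxl1, the transcription factor that defines telocytes, had 1 UMI in each captured sum and 531 UMIs in the stromal-library fibroblasts, a ratio of CPM of 0.131 with a counting interval of 0.0158 to 0.474. Sox6 was at 0.539 and 0.848 against 0.517 and 0.717 CPM, near the level of single UMIs in the captured cells. Nrg1, an EGF family ligand, was at 413 and 326 against 277 and 258 CPM and was not called (0.42, adjusted p = 0.129), but its sign turned with length offsets (-0.86, adjusted p = 0.0316).

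Secreted factors that act on the epithelium moved in both directions. Of the 36 genes of this list, 11 were called higher and 9 lower, which is 30.6% and 25% of them, and the median was 0.01, also with Dkk2 at its bound. Among Wnt factors, Wnt2 fell from 44 and 32.3 to 3.51 and 6.22 CPM (log2 fold change -3.03 ± 0.31, adjusted p = 0.00244), and Wnt4 from 57.9 and 33.5 to 12.4 and 12.2 CPM (log2 fold change -1.94 ± 0.32, adjusted p = 0.00679). The Wnt antagonist gene Dkk2 had 0 UMIs among the 7243230 UMIs of both captured sums, against 33 and 25.5 CPM in the stromal-library fibroblasts. With 3 counts over both captured sums as the floor (0.414 CPM), it was at least 70.2-fold lower.

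Among BMP ligands, which promote epithelial differentiation, Bmp2 fell from 78 and 70.4 to 13.8 and 9.05 CPM (log2 fold change -2.75 ± 0.24, adjusted p = 0.00203), below the 38.2 and 43.7 CPM of the epithelial cells. Bmp4 fell from 175 and 241 to 96 and 129 CPM (log2 fold change -0.95 ± 0.24, adjusted p = 0.0251) and missed the threshold with length offsets (adjusted p = 0.0952). Bmp5, at 12.1 and 24.6 against 10 and 12 CPM, did not pass (adjusted p = 0.145), nor did Bmp7, at 2.43 and 8.2 against 10.3 and 16.4 CPM (adjusted p = 0.081), although Bmp5 was called higher after subtraction (0.93, adjusted p = 0.0307) and Bmp7 lower with length offsets (-2.00, adjusted p = 0.0285). Bmp6 rose by 1.65, but by only 0.38 with length offsets (adjusted p = 0.361). Lower too were the insulin-like growth factor gene Igf1, from 488 and 532 to 70.9 and 141 CPM (log2 fold change -2.33 ± 0.34, adjusted p = 0.00497), the activin inhibitor gene Fst and Tgfb2.

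Other growth factors were called higher, and enzymes of prostaglandin synthesis went both ways. Fgf7, the keratinocyte growth factor, rose from 89.9 and 90.8 to 163 and 213 CPM (log2 fold change 1.00 ± 0.17, adjusted p = 0.0077). Fgf10, a related ligand of the same epithelial receptor, rose from 44.8 and 61.6 to 243 and 220.3 CPM (log2 fold change 2.07 ± 0.22, adjusted p = 0.0026), and by 0.80 with length offsets. Ptgs2, the inducible cyclooxygenase, rose from 120.0 and 112 to 1128 and 402 CPM (log2 fold change 2.68 ± 0.52, adjusted p = 0.0115), and both captured libraries lay above both stromal ones although they differed from each other. Without captured replicate 1 the log2 fold change of Ptgs2 was 1.69. Ptges, the prostaglandin E synthase, rose from 105 and 95 to 244 and 244 CPM (log2 fold change 1.24 ± 0.15, adjusted p = 0.00312). Ptgs1, the constitutive cyclooxygenase, fell from 209 and 213 to 123 and 143 CPM (log2 fold change -0.71 ± 0.15, adjusted p = 0.0143) and missed the threshold after subtraction (adjusted p = 0.0575). Ereg, an EGF receptor ligand, rose from 186 and 149 to 677 and 476 CPM (log2 fold change 1.74 ± 0.25, adjusted p = 0.00506). Its relatives Areg and Hbegf rose by 2.94 and 3.30, yet epithelial cells held 513 and 563 CPM and 178 and 237 CPM of them, and subtraction left 2.66 and 1.55. Without captured replicate 1 the change of Areg was 2.28. Also higher were the activin subunit gene Inhba (1.17 ± 0.23) and the angiogenic factors Pgf (2.54 ± 0.21) and Vegfa (1.32 ± 0.30).

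**Figure D3:**
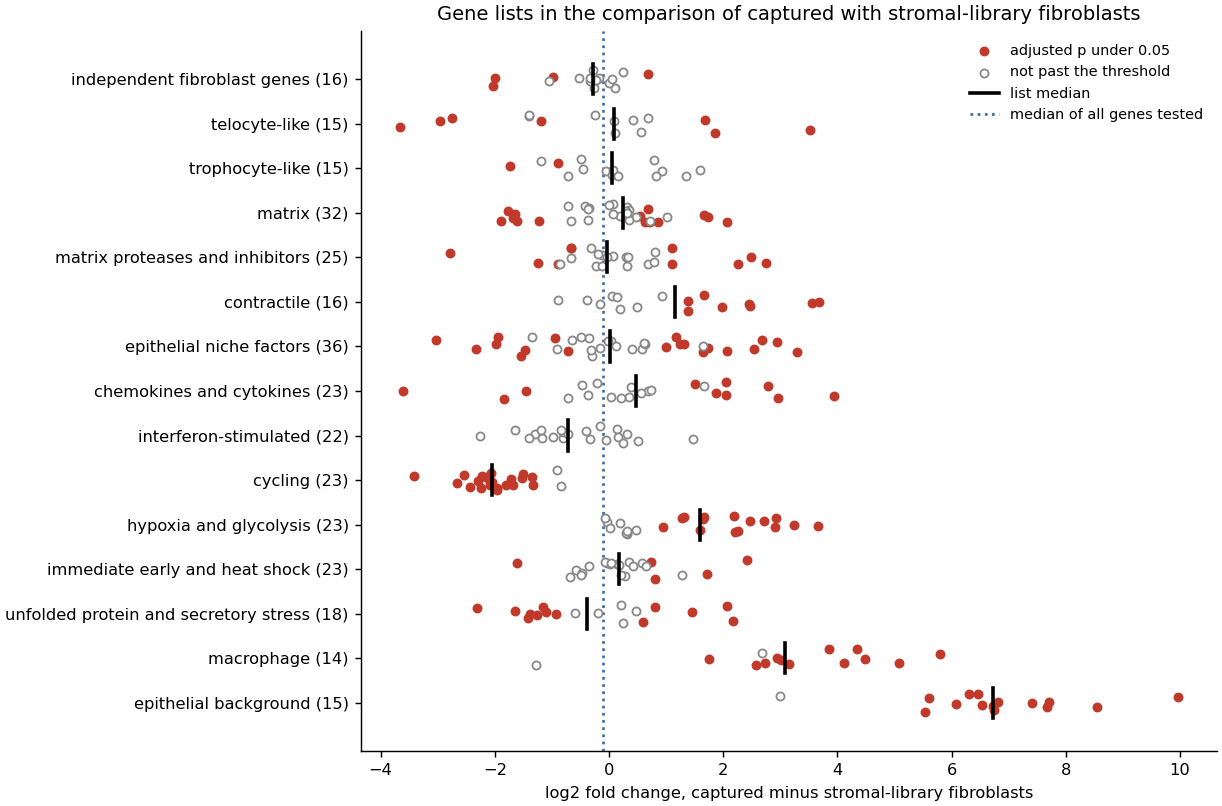
Log2 fold change of each gene, captured minus stromal-library fibroblasts (horizontal axis), by gene list with the number of listed genes. Red points passed an adjusted p of 0.05, open points did not, black bars are list medians and the dotted line is the median of all genes tested (-0.10). The cycling list lies to the left at a median of -2.06 and the hypoxia list to the right at 1.59, and Dkk2, with no UMI in captured cells, is off the scale.

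Of 16 contractile genes, 8 were called higher (50%) and 0 lower, with a median of 1.16. Tagln, an actin-binding protein of smooth muscle, rose from 34.4 and 18.2 to 242 and 399 CPM (log2 fold change 3.55 ± 0.41, adjusted p = 0.00295). Acta2, smooth muscle actin, rose from 97.7 and 80.2 to 135 and 352 CPM (log2 fold change 1.39 ± 0.44, adjusted p = 0.0487), with replicate 1 close to the stromal libraries and replicate 2 well above them. Without replicate 2 its log2 fold change was 0.56 (adjusted p = 0.0613). Cnn1, calponin, rose from 0.868 and 0.572 to 11.1 and 7.92 CPM (log2 fold change 3.67 ± 0.39, adjusted p = 0.00259), and Actg2, enteric smooth muscle actin, from 8.88 and 6.98 to 28.6 and 36.2 CPM (log2 fold change 1.98 ± 0.20, adjusted p = 0.00245). Epithelial cells held 3.17 and 0.825 CPM of Tagln and 2.18 and 1.78 CPM of Acta2, far below the fibroblasts. Des, the muscle intermediate filament, was at 2.7 and 8.48 against 14.2 and 5.82 CPM and did not pass (adjusted p = 0.296). After thinning, 6.84% and 10.3% of captured fibroblasts had a UMI of both Acta2 and Tagln, against 1.46% and 0.896% of stromal-library fibroblasts. The count of higher genes was 5 of 16 without captured replicate 2 and also 5 when the stromal rule was used in all libraries, and with length offsets it was 8, with 2 lower. The offsets turned Cald1 from 0.14 to -1.15 (adjusted p = 0.00853). Pericytes and smooth muscle cells share these genes. Of 8 pericyte and Cajal cell genes, 2 were called higher and 1 lower, and their part in the result was not tested. With length offsets edgeR called 0 of them, with 4 at an unadjusted p under 0.05, whereas 4 were called higher by DESeq2, with the replicate number as a block or with at least 1000 genes per cell. The lower call was lost without either captured library, and without stromal replicate 2 the counts were 1 and 1 of 7.

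Matrix genes were mixed, with 8 of 32 called higher and 6 lower (25% and 18.8%) and a median of 0.24. Tnc, tenascin C, a matrix protein of healing tissue, rose from 233 and 182 to 956 and 832 CPM (log2 fold change 2.06 ± 0.21, adjusted p = 0.00246). Lox, the enzyme that crosslinks collagen, rose from 158 and 153 to 563 and 461 CPM (log2 fold change 1.67 ± 0.19, adjusted p = 0.00279), and Col12a1, a collagen on fibril surfaces, from 195 and 118 to 646 and 429 CPM (log2 fold change 1.73 ± 0.34, adjusted p = 0.0115). Fbln1, fibulin 1 of elastic fibres and basement membranes, fell from 797 and 1021 to 255 and 351 CPM (log2 fold change -1.64 ± 0.24, adjusted p = 0.00519), Col6a3 from 281 and 343 to 60.4 and 115 CPM (log2 fold change -1.89 ± 0.33, adjusted p = 0.00791) and Thbs2, a thrombospondin, from 261 and 225 to 83.4 and 73.8 CPM (log2 fold change -1.68 ± 0.17, adjusted p = 0.00245). These 6 kept their direction and calls with length offsets and after subtraction. Over the list the split depended on length, since with offsets 4 genes were higher and 13 lower (median -0.60). Igfbp7 and Fn1 were not called, at 1425 and 2389 against 2977 and 2870.4 CPM and 459 and 712 against 458 and 462 CPM, but with length offsets Igfbp7 was called lower at -0.98 (adjusted p = 0.0421).

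Enzymes that cut the matrix and their inhibitors were called higher in 5 and lower in 5 of 25 cases (20% each), near the shares over all genes. The lower count was 3 without captured replicate 1, 3 without stromal replicate 2 and 7 without captured replicate 2, and subtraction gave 8 higher and 3 lower and length offsets 8 and 4. Plau, urokinase, rose from 4.05 and 5.58 to 27.5 and 20.1 CPM (log2 fold change 2.26 ± 0.28, adjusted p = 0.00344). Mmp9, a gelatinase, rose by 2.48 ± 0.17 and stood at 34.5 and 30 CPM, beside 30.3 and 46.4 CPM in the epithelial cells. Adamts5, an aggrecan-cutting protease, fell by 2.78 on the log2 scale, from 20.4 and 41.5 to 4.32 and 5.09 CPM (adjusted p = 0.00751). Mmp3 was called lower (-0.67, adjusted p = 0.0305) and not after subtraction (adjusted p = 0.122), and Timp1 did not pass at 397 and 610 against 552 and 372 CPM.

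Among 22 chemokines, cytokines and acute-phase genes tested, 7 were called higher (31.8%) and 3 lower (13.6%), where 24.1% and 25.4% of all genes were. Lcn2, lipocalin 2, an iron-scavenging protein of inflamed tissue, rose from 101 and 36.9 to 1196 and 986 CPM (log2 fold change 3.94 ± 0.53, adjusted p = 0.00421). On GRCm38 it lies at chr2:32384633-32388252. Saa3, serum amyloid A3, rose from 1473 and 1339.7 to 6137 and 4494 CPM (log2 fold change 1.87 ± 0.26, adjusted p = 0.00461). Epithelial cells held 21.3 and 2.31 CPM and 112 and 34.3 CPM, well below the captured fibroblasts of the same libraries. The neutrophil attractant Cxcl2 rose from 27.9 and 32 to 301 and 182 CPM (log2 fold change 2.97 ± 0.30, adjusted p = 0.00245), the cytokine gene Il6 from 13.5 and 14.4 to 66.1 and 53.4 CPM (log2 fold change 2.05 ± 0.18, adjusted p = 0.00208) and the granulocyte factor gene Csf3 from 2.21 and 1.49 to 16.2 and 9.9 CPM (log2 fold change 2.78 ± 0.37, adjusted p = 0.00417). Il1rl1, the IL-33 receptor (2.05 ± 0.40), and Lif (1.51 ± 0.32) were higher as well, and without captured replicate 1 the change of Il1rl1 was 1.32. In the other direction, the monocyte and eosinophil attractants Ccl8 and Ccl11 fell from 169 and 213 to 10.8 and 21.8 CPM (log2 fold change -3.61 ± 0.34, adjusted p = 0.00226) and from 1149 and 1178 to 247 and 433 CPM (log2 fold change -1.83 ± 0.30, adjusted p = 0.00659). Cxcl5 also fell, by 1.45 on the log2 scale. Ccl2 stood at 404 and 511 against 515 and 508 CPM and was not called.

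Calls among interferon-stimulated and immediate early genes depended on which libraries were compared. Of 21 interferon-stimulated genes tested, edgeR called 0, with 2 at an unadjusted p under 0.05, and DESeq2 called 4 lower. The stromal libraries differed from each other here, with Ifi27l2a at 190.1 and 1593 CPM and Isg15 at 102 and 356 CPM, and the captured libraries held 1189 and 1473 CPM and 89.3 and 106 CPM. Without stromal replicate 2, 9 of the list were called higher. Of 23 immediate early and heat shock genes, which respond within minutes to tissue dissociation, 4 were higher (17.4%) and 1 lower (4.35%). The higher count was 1 without captured replicate 1, 2 without captured replicate 2 and 8 without stromal replicate 2. Fos was at 322 and 600.4 against 241 and 628 CPM with overlapping groups. The small heat shock gene Hspb1 rose from 207 and 363 to 1364 and 1808 CPM (log2 fold change 2.42 ± 0.35, adjusted p = 0.00478), while Hspa1a fell from 348 and 888 to 163 and 260.2 CPM (log2 fold change -1.61 ± 0.50, adjusted p = 0.047) and lost its call with length offsets (adjusted p = 0.0711) and stood at -0.68 without stromal replicate 2.

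Genes of the response to low oxygen were higher, with 15 of 23 called higher (65.2%), 0 lower and a median of 1.59. Ndrg1, a stress-induced gene, rose from 36.9 and 27.5 to 447 and 389 CPM (log2 fold change 3.65 ± 0.23, adjusted p = 0.00161). Slc2a1, the glucose transporter GLUT1, rose from 63.2 and 37.7 to 344 and 337 CPM (log2 fold change 2.71 ± 0.28, adjusted p = 0.00251). Ero1l, an oxidase of protein folding, rose from 150.2 and 78.4 to 892 and 896 CPM (log2 fold change 2.92 ± 0.35, adjusted p = 0.00309). In all of these the captured libraries lay close together and far above the stromal ones. Adm, the peptide hormone adrenomedullin, rose from 32.9 and 24.4 to 181 and 265 CPM (log2 fold change 2.91 ± 0.26, adjusted p = 0.00208), and Bnip3, a mitochondrial autophagy receptor, from 112 and 83.4 to 539 and 388 CPM (log2 fold change 2.21 ± 0.26, adjusted p = 0.00312). Several enzymes of glycolysis in the list were not called, such as Pgk1 at 575 and 662 against 651 and 397 CPM and Aldoa, while Eno1 (1.28 ± 0.21) and Gapdh (0.94, adjusted p = 0.0471) were higher.

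The epithelial cells of the same libraries also held these genes, at 482 and 565 CPM for Ndrg1, 248 and 280.0 CPM for Slc2a1, 148 and 139.7 CPM for Adm and 307 and 267 CPM for Bnip3. The level of Ndrg1 was above that of the captured fibroblasts in both libraries, and those of Slc2a1, Adm and Bnip3 were below it. Ero1l, at 709 and 842 CPM in the epithelial cells, was below it too. Over the whole list the epithelial cells held 14197 and 16134 CPM and the captured fibroblasts 14087 and 14577 CPM. The stromal-library fibroblasts held 8935 and 5821 CPM. After subtraction of epithelial RNA, 14 of 23 were still called higher with a median of 1.31, and with length offsets 15 were (median 1.73). Car9, carbonic anhydrase 9, was the gene lost, from 3.23 to -0.40 after subtraction (adjusted p = 0.658). The Epcam-positive barcodes of the epithelial libraries also lay above the 200 unmatched ones of stromal replicate 1, by a median of 0.51 over the list in both replicates. Ndrg1 stood at 482 and 565 against 90.3 CPM. The part of the library kind in the change was not tested.

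The core of the hypoxia response element, the letters ACGTG on either strand, was looked up in 1 RefSeq promoter window per gene, the first listed, of 300 bases from 250 before to 50 after the start of transcription on GRCm38.p6. It was found in 13 of 21 genes of the list with a window (61.9%), in 8 of the 13 of these that were called higher (61.5%) and in 25% of the 12165 genes tested with a window. A match is a description of letters and not a binding site. The windows of Slc2a1 (chr4:119108495-119108794, plus strand) and Bnip3 (chr7:138909457-138909756, minus strand) are shown as examples of called genes with the letters, in capitals, on the sense or the opposite strand.
Slc2a1: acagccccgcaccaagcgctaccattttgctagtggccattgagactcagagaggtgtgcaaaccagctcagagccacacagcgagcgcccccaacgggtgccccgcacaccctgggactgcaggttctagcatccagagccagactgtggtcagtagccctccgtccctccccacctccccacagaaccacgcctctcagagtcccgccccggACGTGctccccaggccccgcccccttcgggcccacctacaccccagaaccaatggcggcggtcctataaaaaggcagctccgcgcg
Bnip3: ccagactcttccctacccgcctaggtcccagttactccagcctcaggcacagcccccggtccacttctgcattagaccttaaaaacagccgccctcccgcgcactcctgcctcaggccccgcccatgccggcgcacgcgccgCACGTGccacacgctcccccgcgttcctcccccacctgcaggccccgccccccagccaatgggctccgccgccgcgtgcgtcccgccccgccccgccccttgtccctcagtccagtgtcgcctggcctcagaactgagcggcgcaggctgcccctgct
In Bnip3 the capitals are a palindrome that gives 2 overlapping matches, 1 on each strand. Slc2a1 has 1 match.

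Genes of the cell cycle were lower, with 21 of 23 called lower (91.3%), 0 higher and a median of -2.06. Mki67, the proliferation antigen Ki-67, fell from 132 and 110.2 to 35.6 and 28.6 CPM (log2 fold change -1.96 ± 0.19, adjusted p = 0.00232). Rrm2, a subunit of the enzyme that makes deoxynucleotides, fell from 57.5 and 45.6 to 3.78 and 6.22 CPM (log2 fold change -3.42 ± 0.27, adjusted p = 0.00189), and Pcna, the sliding clamp of replication, from 102 and 90 to 32.1 and 29.7 CPM (log2 fold change -1.69 ± 0.15, adjusted p = 0.00214). Plk1, a kinase of mitosis, fell from 44.5 and 34.6 to 7.01 and 5.94 CPM (log2 fold change -2.66 ± 0.22, adjusted p = 0.002003). Tpx2 and Nusap1 missed the threshold (adjusted p = 0.0542 and 0.0626). Epithelial cells held more Mki67 than the captured fibroblasts, 99 and 82.5 CPM, and subtraction left 22 of 23 called lower. Length offsets also left 22. After thinning, at least 3 cycling genes were seen in 10.9% and 7.79% of captured fibroblasts against 33.9% and 22.8% of stromal-library fibroblasts, and in 33.9% and 21.5% of epithelial cells. The Epcam-positive barcodes were lower in the epithelial libraries too, by medians of -0.83 and -1.02 against stromal replicate 1. Mki67 did not follow, at 99 and 82.5 against 88.5 CPM. As the barcodes of stromal replicate 1 are not matched epithelium, this does not separate library kind from cell type.

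Genes of protein folding in the secretory pathway moved in both directions, with 8 of 18 called lower (44.4%) and 5 higher. Folding enzymes and chaperones were among the lower genes, with the disulphide isomerase Pdia6 from 807 and 701 to 230.1 and 357 CPM (log2 fold change -1.42 ± 0.25, adjusted p = 0.00841), Calr, calreticulin, from 1097 and 968 to 426 and 534 CPM (log2 fold change -1.16 ± 0.19, adjusted p = 0.00728) and Sdf2l1 from 115 and 98.5 to 32.9 and 37.3 CPM (log2 fold change -1.65 ± 0.15, adjusted p = 0.00221). Xbp1, a transcription factor of this pathway, fell by 1.26 on the log2 scale (adjusted p = 0.00321). Hspa5, the chaperone BiP, was not called, at 1017 and 934 against 811 and 828 CPM. The stress-induced transcription factor gene Ddit3 rose from 44.2 and 57 to 242 and 231 CPM (log2 fold change 2.17 ± 0.19, adjusted p = 0.00212), and the files hold a further identifier under that symbol, which was not used. Atf5, another stress factor, fell from 128 and 100.2 to 16.2 and 31.4 CPM (log2 fold change -2.32 ± 0.32, adjusted p = 0.00428). Under the stromal rule in all libraries, and also without stromal replicate 2, 2 genes of the list were called higher.

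**Figure D4:**
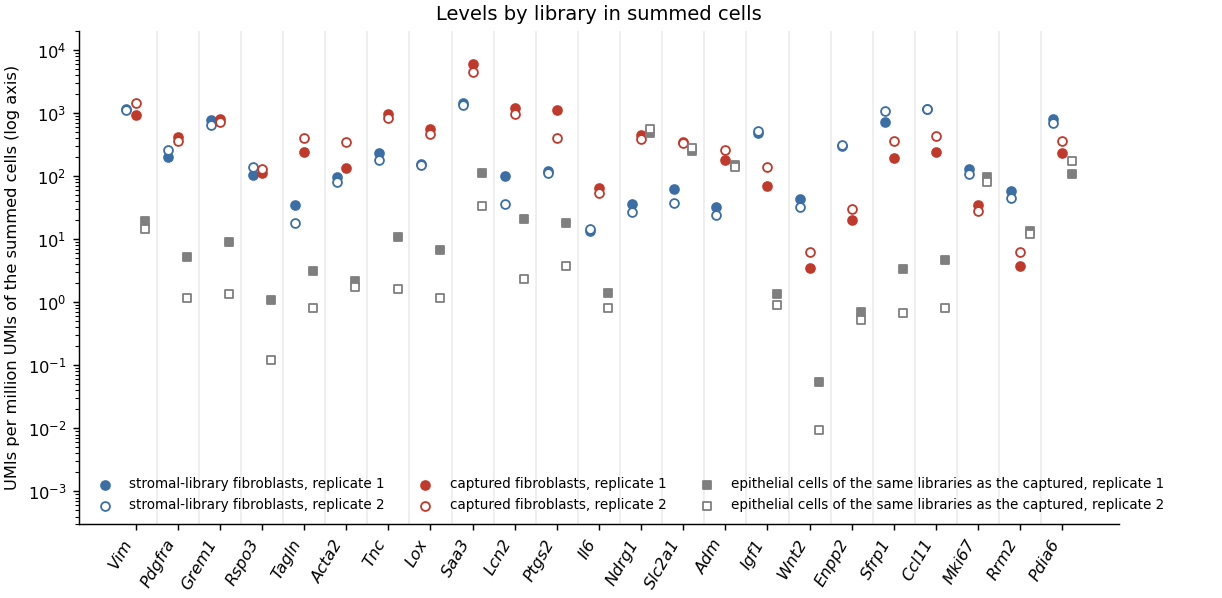
Levels in CPM (log axis) of named genes in the summed stromal-library fibroblasts (blue), captured fibroblasts (red) and epithelial cells of the same libraries as the captured ones (grey squares), with replicate 1 filled and replicate 2 open. Grem1 and Rspo3 lie together in both fibroblast groups, Ndrg1 lies with the epithelial cells at 447 and 389 CPM in captured fibroblasts, and Lcn2 lies above both other groups.

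By a rule of size, the 10 highest and 10 lowest log2 fold changes were named among called genes whose log2 CPM averaged 5 or more over the 4 sums and whose groups did not overlap, which 830 higher and 1425 lower genes met. Of the 10 highest, Lgals4 (7.42), Krt8 (7.16) and Krt19 (5.61) are epithelial genes, with 2695 and 3579.5 CPM of Krt8 in the epithelial cells, and subtraction turned Krt8 to -10.38. The other 7 were Agbl3 (5.43), Limk2 (4.92), Pcdh9 (4.82), Lrmda (4.76), Cmss1 (4.63), AY036118 (4.16) and Abi1 (4.15). Epcam-positive barcodes were also higher in the epithelial libraries than in stromal replicate 1 for these genes, with Abi1 at 145 and 145 against 36.1 CPM, Cmss1 at 431 and 247 against 27.6 CPM and AY036118 at 460 and 289 against 103 CPM. Pcdh9, a protocadherin gene with long introns, stood at 507 and 709 CPM in the captured fibroblasts, 19.6 and 21.8 CPM in the stromal-library fibroblasts and only 5.56 and 2.34 CPM in the epithelial cells.

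The 10 lowest were Hist1h1b (-4.40), Pla2g7 (-3.91), Enpp2 (-3.66), Ccl8 (-3.61), Tcf21 (-3.44), Inhbb (-3.23), Arxes2 (-3.04), Gas6 (-3.03), Stmn1 (-2.81) and Aldh1a2 (-2.79). Tcf21, a transcription factor of mesenchymal precursors, fell from 152 and 253 to 16.5 and 22.3 CPM (log2 fold change -3.44 ± 0.34, adjusted p = 0.00232). Inhbb, an activin and inhibin subunit, fell from 128 and 92.1 to 9.98 and 14.4 CPM (log2 fold change -3.23 ± 0.26, adjusted p = 0.00192), opposite in direction to Inhba above. Aldh1a2, which makes retinoic acid, fell from 213 and 131 to 21.3 and 30.3 CPM (log2 fold change -2.79 ± 0.31, adjusted p = 0.00272). Hist1h1b, a linker histone of dividing cells, and Stmn1, a microtubule regulator, fell as well. All 10 stayed lower with length offsets, between -4.26 for Enpp2 and -2.44 for Stmn1. Without captured replicate 2, Arxes2 moved to -4.06 and Gas6 to -3.75.

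A further set, chosen after values were seen, kept the conditions of the named genes (called, no overlap between the groups and log2 CPM averaging 5 or more) and took the 12 highest genes after subtraction whose lower level in the 2 captured sums exceeded the higher level in the epithelial cells of both libraries. Besides Agbl3, Pcdh9, Lrmda, AY036118 and Abi1, it held Lcn2, Pde4d, Mt3, Sdk1, Sox5, Fnip2 and Glis3. Mt3, a metallothionein, stood at 300.2 and 50.3 against 9.27 and 16.1 CPM (log2 fold change 3.75 ± 0.89, adjusted p = 0.0209), with replicate 1 far above replicate 2. Its log2 fold change was 1.89 without replicate 1 and 4.52 without replicate 2. Sdk1, a cell adhesion gene, stood at 222 and 213 against 12.4 and 18.5 CPM (log2 fold change 3.76, 2.49 with length offsets). Glis3, a zinc finger transcription factor gene, stood at 239.5 and 403 against 23.6 and 24.9 CPM (3.67, 2.37 with length offsets). Sox5, a transcription factor gene, went from 3.73 to 2.44 with the offsets, while Lcn2 stood at 4.31 with them.

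The differences could also be counted in single cells at equal depth. At 2000 UMIs per cell, Lcn2 was seen in 37% and 33.6% of captured fibroblasts, 5.4% and 2.77% of stromal-library fibroblasts and 5.07% and 0.800% of epithelial cells. Without thinning the Lcn2 shares were 45% and 49.5% of captured and 18.2% and 10.1% of stromal-library fibroblasts, at unequal depth. Igf1 was seen in 11.9% and 23.1% of captured against 53.2% and 52.9% of stromal-library fibroblasts (17% and 48.3% against 90.2% and 90.3% without thinning). Grem1 was seen in 59.1% and 57% against 59.5% and 54.8%, a pair of ranges that overlap. Ptgs2 was seen in 50.4% and 34.6% against 11.2% and 12.5%, and Enpp2 in 5.09% and 4.98% against 39% and 41.4%. Epithelial genes remained in many captured cells, with Krt8 in 48.8% and 40.5% of them against 97.8% and 97.2% of epithelial cells.

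**Figure D5:**
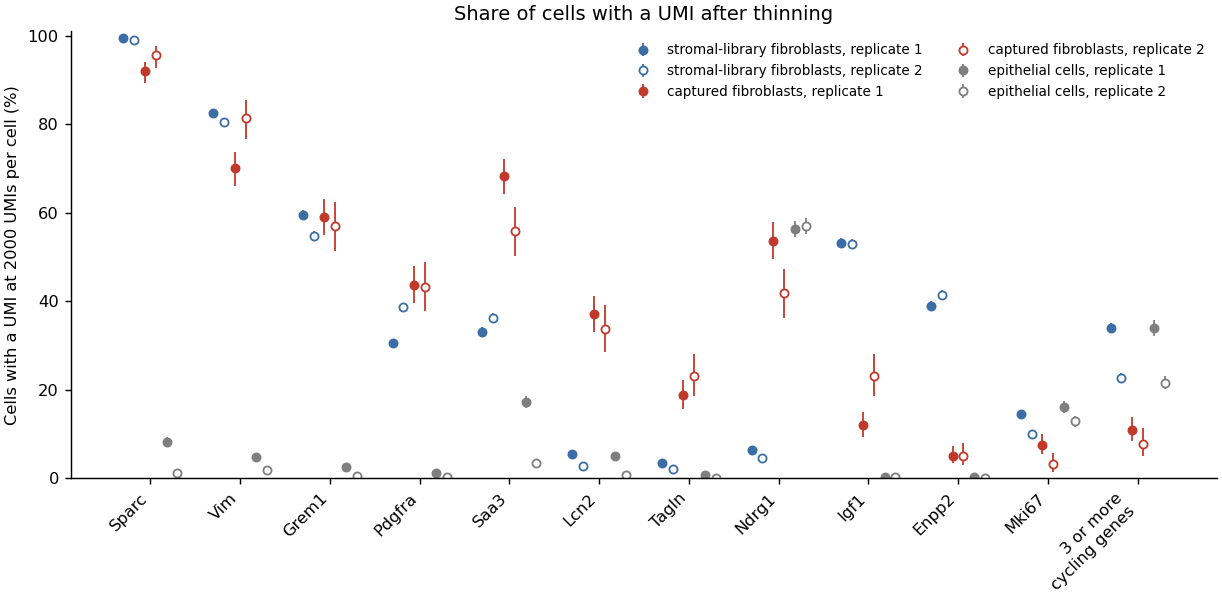
Share of cells with at least 1 UMI of a gene (vertical axis, percent) after each cell was thinned to 2000 UMIs, with 95% exact binomial intervals, in stromal-library fibroblasts (blue), captured fibroblasts (red) and epithelial cells of the same libraries (grey), replicate 1 filled and replicate 2 open. The last column counts cells with at least 3 cycling genes, 10.9% and 7.79% in captured against 33.9% and 22.8% in stromal-library fibroblasts.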

How the data were processed

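The deposited files hold counts of UMIs per gene and barcode (raw counts made by the authors with Cell Ranger, version 6 on mm10 per the labels, 6.0.1 for the stromal and 7.1.0 for the epithelial libraries per the file headers). The libraries used held 138380271 to 182709990 UMIs in the 4 assembloid libraries. Whether intronic reads were counted is not given in the sources used here. Gene symbols were taken from the files, where 1 symbol with 2 identifiers was read from the first, and 32235 of 32285 identifiers (99.8%) were matched to GENCODE M21 for position and intron length.

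Barcodes were kept from 500 detected genes upward and up to 10% mitochondrial UMIs, which the study states for its stromal cells, and the same limits were used for the epithelial libraries, where the study's own are not given in the sources used here. UMIs were summed over the chosen cells of each library, since cells are not replicates, and the 2 captured sums were compared with the 2 stromal sums with edgeR 4.0.16 (filterByExpr, TMM, quasi-likelihood test, Benjamini-Hochberg adjustment over all genes tested) in R 4.3.3, with DESeq2 1.42.0 as an alternative. Errors of log2 fold changes were worked back from the test, as the absolute change divided by the square root of the quasi-likelihood F statistic. An exact permutation test of 2 against 2 cannot give a p under 0.33, so none was run. The p-values measure the spread between these libraries. Epithelial RNA in captured cells was estimated from 15 epithelial genes and the cells of the same library with at least 3 Epcam UMIs and fewer than 3 rule genes, and was subtracted in 1 alternative. Intron-length offsets and stricter rules were added after seeing the data. Shares of cells were computed after thinning to 2000 UMIs with 95% exact intervals that cover counting error only, and the epithelial cells were sampled to 3000 per library. Doublets were not called. Between 13 and 141 barcode sequences were shared by each pair of libraries.

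Named genes were the 10 highest and 10 lowest changes among called genes whose log2 CPM averaged 5 or more and whose groups did not overlap, without mitochondrial, ribosomal protein, haemoglobin, immunoglobulin and rule genes, then up to 5 members of each list by level or change, all detected members of short lists, and markers of the study's stromal classes. Further list members were named after their values were seen. The cells, lists and tests were chosen with earlier results of these data known. The code of the fit was run on simulated counts with known changes. The outcome is not given here and does not bear on the calls. Promoter windows came from RefSeq on GRCm38.p6.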

Additional observations from a re-analysis of the deposited data

Results flagged for a closer look

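Barcodes with 3 or 4 of the rule genes and at least 2 Epcam UMIs stood outside the comparison. There were 2511 of them in assembloid epithelium replicate 1 and 302 in replicate 2, against 0 in the organoid and tissue libraries, and they were looked at because they carry fibroblast RNA in the library set aside for epithelium. In replicate 1 they outnumbered the 795 captured fibroblasts, and in replicate 2 they did not reach the 329. Those with 6 or more Epcam UMIs, 1413 and 85 barcodes, had medians of 8 and 75 UMIs of the rule genes. In replicate 2, 125 barcodes had 2 Epcam UMIs and 92 had 3 to 5. Their medians were 80 and 141.5 UMIs of the rule genes, beside 88 in the members. The list of epithelial genes made up 0.131% and 0.129% of their UMIs, beside 0.119% in the members. In replicate 1 there were 370 and 728 such barcodes. Their medians were 10 and 7 beside 21, and their shares 0.495% and 0.873% beside 0.251%. Whether the group holds fibroblasts, droplets with a fibroblast and an epithelial cell, or epithelial cells with free fibroblast RNA, was not tested.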

How the results depend on the processing

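The count of called genes stayed within 1.5 times of 8174 under 15 alternatives, between 6174 (with a change of at least 2-fold) and 8661 (no filter on low counts). Leaving out 1 library gave 0 to 7997 called genes, 0 to 3648 higher and 0 to 4349 lower, with 0 without stromal replicate 1 and 5003 (2305 lower) without stromal replicate 2. The lowest adjusted p without stromal replicate 1 was 0.0702, and the cause was not tested. Over the same 4 settings the counts were 0 to 23 for cycling genes lower, 0 to 14 for hypoxia genes higher, 0 to 8 for contractile genes higher, 0 to 8 for secretory stress genes lower and 0 to 8 for chemokine and cytokine genes higher. The contractile count was 5 with the stromal rule in all libraries and 5 without captured replicate 2. The share of captured fibroblasts in replicate 1 was 1.67% with all 4 rule genes, 4.18% with at least 2, 1.36% with Epcam at 0 and 3.02% with at most 5% mitochondrial UMIs. In replicate 2 it was 3.76%, 1.86% with Epcam at 0 and 6.42% with at most 5% mitochondrial UMIs, where fewer barcodes pass. Over named genes and alternatives, the direction and side of the threshold held in 2186 cases, 205 lost the threshold (94 of them without stromal replicate 1), 60 gained it and 10 turned. These were, after subtraction, Krt8 at -10.38 (-10.38 with all 4 rule genes), Krt7 at -9.88 (-9.88), Erbb3 at -7.19 (-7.19) and Car9 at -0.40 (-0.23), and with length offsets Nrg1 at -0.86 and Cald1 at -1.15. The values for Krt8, Krt7 and Erbb3 come from counts set to 0 by the subtraction and are no bounds. Leaving out 1 library also moved called log2 fold changes: without stromal replicate 1 Lcn2 stood at 4.92, Tagln at 4.16, Hbegf at 3.93, Ero1l at 3.55, Car9 at 4.04, Krt8 at 7.96, Krt19 at 7.03, Thy1 at -1.43 and Pla2g7 at -2.97, without stromal replicate 2 Krt19 at 5.01 and Adamts5 at -2.08, and without captured replicate 1 Lgals4 at 6.76, Krt8 at 6.46, Krt19 at 4.94 and Car9 at 2.63. The replicate block gave 8582 calls, 4213 higher and 4369 lower, and 2 higher and 7 lower interferon-stimulated genes. The labels do not say that a number marks a shared mouse, and the deviations of replicate 1 from the group means correlated at 0.11 over genes. Depth limits genes with few UMIs, since 3 UMIs over both captured sums are 0.414 CPM.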
